A study of Mus musculus with 6 samples.

Results

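Molecular chaperone genes were examined in mouse haematopoietic stem cells that carried the BCR/ABL fusion kinase or an empty vector. The members were the heat shock proteins of the Hsp60, Hsp10, Hsp70, Hsp110 and Hsp90 families, the small heat shock proteins, the J proteins of classes A, B and C, and the subunits of the cytosolic chaperonin TRiC. They were taken by gene symbol, from probe sets that carried a single symbol starting with Hspa, Hspb, Hspd, Hspe, Hsp90, Dnaja, Dnajb, Dnajc or Cct and a digit, or equal to Hsph1 or Tcp1. Where a gene had several probe sets, the one brightest on average over the 6 arrays stood for it. This gave 80 genes out of 18193 on the array, with 196 probe sets between them. The rule used gene names and mean signal, not differences between groups. Of the 80 genes, 61 had a mean signal above 93.8, the median of all probe sets tested, and 19 lay at or below it. The 19 dim genes were Hspa12a, Hspa12b, Hspa1a, Hspa1l, Dnajb3, Dnajb7, Dnajb8, Dnajb13, Dnajc5b, Dnajc5g, Dnajc22, Hspb1, Hspb2, Hspb3, Hspb7, Hspb8, Hspb9, Cct6b and Cct8l1. Hsp90ab1 was not analysed here.

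Total RNA came from GFP+, lineage-negative, c-Kit+ and Sca-1+ cells sorted by flow cytometry, straight into an RNA preservative, from the long bones of a mouse model of chronic myeloid leukaemia (CML). Each of the 3 groups had 2 arrays: cells transduced with the empty GFP vector, cells transduced with BCR/ABL, and BCR/ABL cells from mice treated with imatinib, an inhibitor of the ABL kinase. All groups therefore shared the marrow transduction, the GFP marker and the sort gate, and the imatinib group differed from the BCR/ABL group by the treatment alone as labelled. The dose and the length of the treatment, the strain, the age and the promoter that drove BCR/ABL are not stated. A vector group given imatinib was not analysed here. Nothing in the labels ties an array to a mouse or a pool of mice, so each p-value measures only the spread between these arrays. Because the RNA was taken in bulk, fewer cells of a type and less RNA per cell cannot be told apart in any value below.

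Chaperones bind unfolded or partly folded proteins and keep them from aggregating. Hsp70 proteins hold short hydrophobic stretches in a cycle of ATP binding and hydrolysis. J proteins bring clients to Hsp70 and speed up hydrolysis, and Hsp110 proteins and other exchange factors release the ADP. Hsp60 with its lid Hsp10 in mitochondria and TRiC in the cytosol enclose whole proteins in a chamber; actin and tubulin are the best known clients of TRiC. Hsp90 acts late, on kinases and receptors that are already partly folded, and BCR/ABL itself is among its clients. Heat shock factors drive the stress-inducible genes of these families through heat shock elements, inverted repeats of the unit GAA, while the unfolded protein response drives the chaperones of the endoplasmic reticulum.

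The stretches upstream of the start site are shown for the genes that the values below turn on, because they hold the letters by which these regulators are recognised. RefSeq promoter sequence of build GRCm38.p6 was matched for 66 of the 80 genes, and the 250 bases before each start were searched on both strands. Capitals mark the match and every sequence runs 5′ to 3′ along the strand of its gene. The heat shock element was searched as 2 units, GAANNTTC or TTCNNGAA, and as 3 units, GAANNTTCNNGAA or TTCNNGAANNTTC, so that a 3-unit match always holds a 2-unit match. The endoplasmic reticulum stress element was searched as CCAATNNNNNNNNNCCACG or its reverse complement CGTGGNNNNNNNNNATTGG.
Hspa1b, chr17:34959295-34959382, minus strand, 2 units: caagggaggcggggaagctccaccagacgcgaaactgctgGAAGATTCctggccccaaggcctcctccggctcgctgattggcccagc
Hsph1, chr5:149636337-149636409, minus strand, 2 units: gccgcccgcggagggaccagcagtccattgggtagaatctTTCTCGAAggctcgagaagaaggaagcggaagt
Hspe1, chr1:55088019-55088111, plus strand, 3 units: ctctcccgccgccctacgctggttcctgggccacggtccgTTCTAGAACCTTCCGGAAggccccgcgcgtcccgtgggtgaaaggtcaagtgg
Dnajb6, chr5:29735812-29735897, plus strand, 3 units: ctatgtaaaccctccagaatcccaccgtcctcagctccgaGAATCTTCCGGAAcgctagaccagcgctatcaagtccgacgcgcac
Hspa5, chr2:34771985-34772083, plus strand, stress element: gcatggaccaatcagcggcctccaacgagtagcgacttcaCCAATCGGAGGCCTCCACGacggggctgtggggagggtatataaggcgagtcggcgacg
Hsp90b1, chr10:86705598-86705694, minus strand, stress element: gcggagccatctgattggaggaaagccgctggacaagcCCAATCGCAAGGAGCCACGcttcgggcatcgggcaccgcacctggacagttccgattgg
Dnajc3, chr14:118937787-118937885, plus strand, stress element: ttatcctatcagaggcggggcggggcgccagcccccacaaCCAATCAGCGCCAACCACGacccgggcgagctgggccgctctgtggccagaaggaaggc

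The capitals in the Hspe1 stretch hold 2 overlapping matches, at chr1:55088059-55088071 and chr1:55088064-55088076. Hspd1 lies on the other strand with its start on the far side of this site, so the same letters stand upstream of both genes, which face away from each other. Upstream of Hspa1a, at chr17:34972213-34972300, the 88 bases shown for Hspa1b were identical, and over the whole 250 bases the 2 genes differed at 3 positions, an identity of 98.8%. A 3-unit match was found in 3 members, Hspd1, Hspe1 and Dnajb6, or 4.55% of the 66, against 0.514% of the 27025 genes with a promoter in the table. A 2-unit match was found in 17 members (25.8%) against 14.5% of all genes. The stress element was found in Hspa5, Hsp90b1 and Dnajc3 only, 4.55% of the members against 0.13% of all genes. A match is a run of letters and not a measured binding site, and the absence of a match says only that those letters are not in the window.

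Levels are given as log2(signal + 16) after quantile normalisation, and differences between groups are on the same scale, which understates the change of dim genes. A level of 1 probe set cannot be set against that of another. Median deposited signal ran from 35.6 to 57.2 over the arrays, and the 2 arrays of a group correlated at 0.971 for the vector, 0.991 for BCR/ABL and 0.985 for imatinib. All 8 measured stem cell markers, Kit, Cd34, Flt3, Procr, Slamf1, Mecom, Meis1 and Hoxa9, lay above the median signal. So did 10093 of the 18193 genes, all 9 granulocyte markers, all 9 mast cell and basophil markers and 8 of 10 B cell markers. Such a level therefore cannot test the labelled sort. Against untreated BCR/ABL cells, all 8 stem cell markers were higher with imatinib, with a median log2 difference of 0.53. Only 6 of the 8 did not overlap, against 24.8% of all genes. Only Kit (1.13) and Flt3 (1.36) met the looser count defined below, which 7.88% of all genes met as higher. Ly6a, which encodes the gate marker Sca-1, was not analysed here. The summed signal of 10 B cell markers was 24706 and 4866 on the vector arrays, 1319 and 2474 with BCR/ABL and 705 and 1783 with imatinib. For 9 mast cell and basophil markers the sums were 16086 and 11337 with the vector, 42457 and 41867 with BCR/ABL and 63757 and 55082 after treatment. Between imatinib and BCR/ABL the looser count found 1 B cell marker lower, 2 mast cell markers and 1 of 7 monocyte markers higher, and 0 of 9 granulocyte, 5 erythroid and 5 T and NK cell markers in either direction. The part of these other cells in the differences below was not tested.

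Few chaperone genes set BCR/ABL cells apart from vector cells. With imatinib many abundant chaperones lay below both other groups, although no single member passed the adjusted test. Between BCR/ABL and vector, 0 of the 80 genes passed an adjusted p of 0.05 in limma (Benjamini-Hochberg over 35877 probe sets, of which 0.0613% passed), and the smallest adjusted p of a member was 0.347. By a looser count, an unadjusted p under 0.05 with no overlap of the 2 groups, 3 members were higher and 1 was lower, against 7.16% and 5.55% of all genes. These shares of the members, 3.75% and 1.25%, were below the shares over all genes. In all, 49 were higher and 31 lower, against 52.4% and 47.6% of all genes, with a median difference of 0.07 against 0.01 for all genes. The groups did not overlap for 28 higher and 10 lower members, against 23.9% and 20.1% of all genes. Scaling to array medians gave 72 higher and 8 lower, but it also shifted the median of all genes by 0.20, and relative to that shift the members' median was 0.04. Both looser counts varied when single arrays were left out. Such a fit leaves 1 array in a group, so its counts are not given.

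Between imatinib and untreated BCR/ABL, 54 of the 80 genes were lower and 26 higher, while 51% of all genes were lower and 49% higher. The median difference of the members was -0.12 and that of all genes was -0.01. The split was 43 lower and 37 higher on the signals as deposited and 68 lower and 12 higher with array medians, which shifted the median of all genes by -0.27. Relative to all genes the members' median was -0.11 in the main analysis and -0.13 under either other scaling. The 2 groups did not overlap, with imatinib lower, for 35 members against 26.7% of all genes, and with imatinib higher for 13 against 24.8%. The looser count gave 24 members lower (30%) against 9.13% of all genes, and 3 higher (3.75%) against 7.88%. Bright genes met the looser rule more often than dim ones. Among the genes above the median signal, 23 of 61 members (37.7%) were counted lower against 13.1% of 10093 genes, and 2 of 61 higher against 11.5%. After adjustment 0 members passed, as 0% of all probe sets did, and the smallest adjusted p of a member was 0.108. The looser count of lower members fell, and that of higher members varied, when single arrays were left out.

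**Figure D1:**
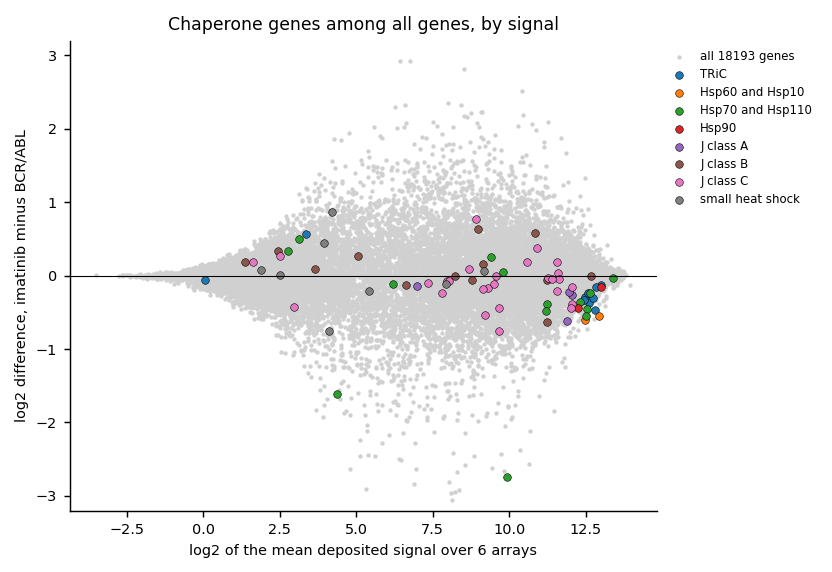
The horizontal axis gives the log2 of the mean deposited signal of a gene over 6 arrays, and the vertical axis gives the log2 difference between imatinib and untreated BCR/ABL cells; grey points are all 18193 genes (11 lie outside the vertical range) and coloured points are the 80 chaperone genes by role. At the bright end TRiC, Hsp60, Hsp10 and many Hsp70 genes sit just below 0, and Hspa1b lies far below at -2.75.

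Against vector cells, 52 members were lower with imatinib and 28 higher, against 50.2% and 49.8% of all genes. Their median difference was -0.11, while that of all genes was within 0.01 of 0. The groups did not overlap for 31 lower and 10 higher members, against 22.3% and 21.9%. Here 0 members passed adjustment (0.0446% of probe sets did), and the smallest adjusted p was 0.144. The looser count gave 17 lower (21.2%) against 7.7% of all genes and 4 higher (5%) against 9%. The lower count fell and the higher count varied when single arrays were left out. On both imatinib arrays 27 members (33.8%) lay below all 4 other arrays, against 13.3% of all genes, and 5 members (6.25%) lay above all 4, against 12.1%. The comparisons share arrays: the BCR/ABL arrays enter 2 of them, and so do those of the other groups, so the 3 sets of differences are not independent of each other.

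**Figure D2:**
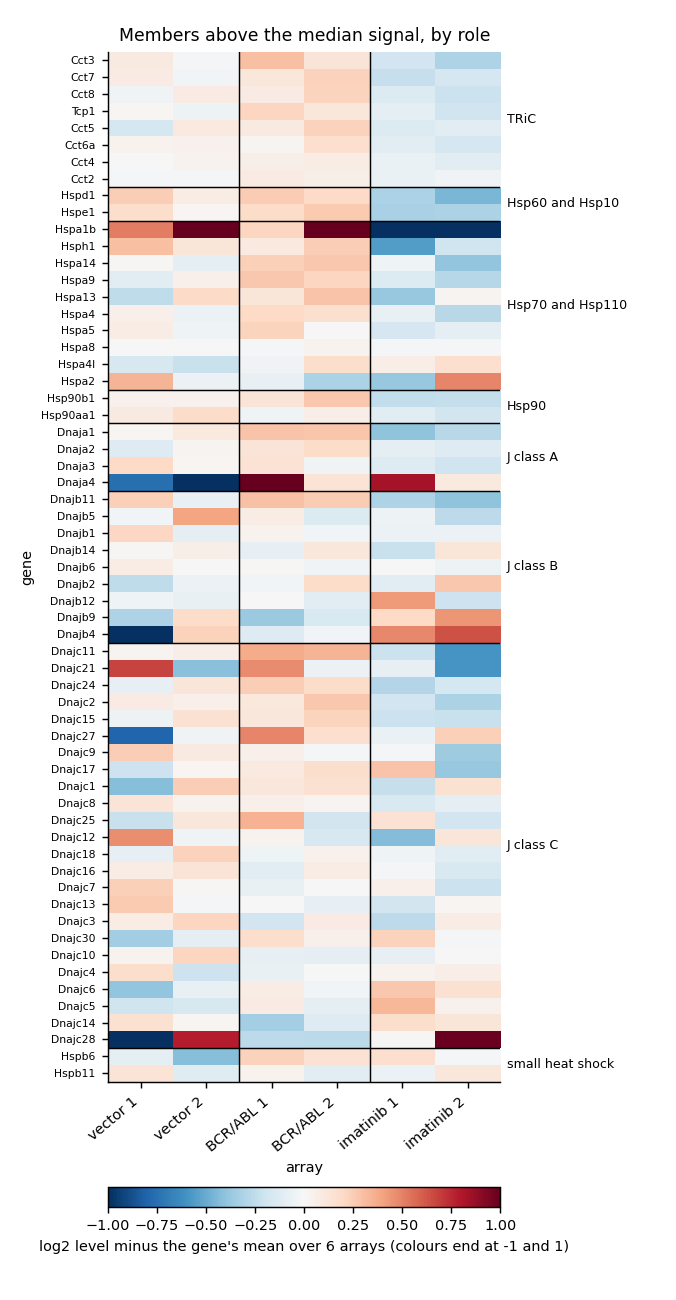
Rows are the 61 members above the median signal, grouped by role, columns are the 6 arrays, and the colour gives the log2 level minus the gene's mean over the arrays, from blue (lower) to red (higher), ending at -1 and 1. The imatinib columns are blue for TRiC, Hsp60, Hsp10, Hsp90 and most Hsp70 rows and mixed for the J proteins of classes B and C.

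TRiC, the ring of 8 different subunits in the cytosol, lay lower with imatinib than with untreated BCR/ABL in each core subunit, while 0 of the subunits met the looser rule between BCR/ABL and vector. Its list held 10 genes: Tcp1, which encodes the alpha subunit, Cct2 to Cct5, Cct6a, Cct7 and Cct8, which encode the other core subunits, and the dim relatives Cct6b and Cct8l1. The 8 core subunits were all bright. With imatinib all 8 were lower than with BCR/ABL without overlap, against 26.7% of all genes. Their log2 differences ran from -0.46 to -0.12, with a median of -0.30. Of the 8, 7 (87.5%) met the looser rule, against 13.1% of all genes above the median signal. Their limma adjusted p-values ran from 0.123 for Cct3 to 0.319 for Cct4. With BCR/ABL all 8 were higher than with the vector, by 0.05 to 0.20. Only 5 did not overlap, against 23.9% of all genes, and 0 met the looser rule, against 7.16%. Cct4 had the smallest of these differences. Its difference relative to all genes was 0.0057 under the other scalings, which give the same relative values by construction. The BCR/ABL arrays enter both of these comparisons. Over all 10 genes the medians were 0.11 for BCR/ABL against vector, -0.26 for imatinib against BCR/ABL and -0.12 for imatinib against vector. In the last, 2 genes (20%) met the looser rule as lower, against 7.7% of all genes and 10.5% of those above the median signal.

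Cct3, the gamma subunit, gave the lowest difference among the probe sets chosen: its log2 level was 12.90 and 12.78 with the vector, 13.10 and 12.94 with BCR/ABL and 12.61 and 12.50 with imatinib. The imatinib arrays lay below all others, with a difference from BCR/ABL of -0.46 (SE 0.09, adjusted p = 0.123) and from the vector of -0.28 (SE 0.09, adjusted p = 0.275). All 4 of its bright probe sets were lower with imatinib than with BCR/ABL. Cct7, the eta subunit, had levels of 12.68 and 12.57 with the vector, 12.71 and 12.83 with BCR/ABL and 12.37 and 12.43 with imatinib. Again both imatinib arrays were lowest, and the difference from BCR/ABL was -0.37 (SE 0.08, adjusted p = 0.141). It met the looser rule in each of the 15 alternative analyses that were run, and its other bright probe set gave -0.67 (adjusted p = 0.108).

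Cct8, the theta subunit, lay at 12.41 and 12.53 with the vector, 12.53 and 12.67 with BCR/ABL and 12.31 and 12.23 with imatinib. Its imatinib arrays were lowest by a smaller margin, with a difference from BCR/ABL of -0.33 (SE 0.09, adjusted p = 0.182). Tcp1 lay at 12.76 and 12.69 with the vector, 12.96 and 12.85 with BCR/ABL and 12.64 and 12.54 with imatinib. Its difference was -0.31 (SE 0.08, adjusted p = 0.167), and the BCR/ABL arrays were both above the vector arrays. Cct5, the epsilon subunit, lay at 12.30 and 12.57 with the vector, 12.57 and 12.71 with BCR/ABL and 12.34 and 12.37 with imatinib; its vector arrays spread across the range of the other groups. The difference between imatinib and BCR/ABL was -0.29 (SE 0.11, adjusted p = 0.307).

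The remaining core subunits showed the smallest differences on the probe sets chosen. Cct6a, the zeta subunit, had levels of 12.63 and 12.63 with the vector, 12.62 and 12.76 with BCR/ABL and 12.49 and 12.43 with imatinib, and a difference between imatinib and BCR/ABL of -0.23 (SE 0.08, adjusted p = 0.247). Cct4, the delta subunit, had levels of 12.85 and 12.88 with the vector, 12.91 and 12.92 with BCR/ABL and 12.78 and 12.73 with imatinib. Its difference of -0.16 (SE 0.06, adjusted p = 0.319) met the looser rule in only 5 of the 15 alternatives. The size depended on the probe set: those of similar signal gave -0.14 and -0.16, and the 2 less bright ones above the median signal gave -1.08 and -1.15 (adjusted p = 0.255 and 0.353). Cct2, the beta subunit, was nearly flat on its chosen probe set, at 12.99 and 12.99 with the vector, 13.09 and 13.06 with BCR/ABL and 12.94 and 12.97 with imatinib. Its difference of -0.12 (SE 0.06, adjusted p = 0.402) did not meet the rule. The size depended on the probe set here too, as its other bright probe sets gave -0.10 and -0.27.

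**Figure D3:**
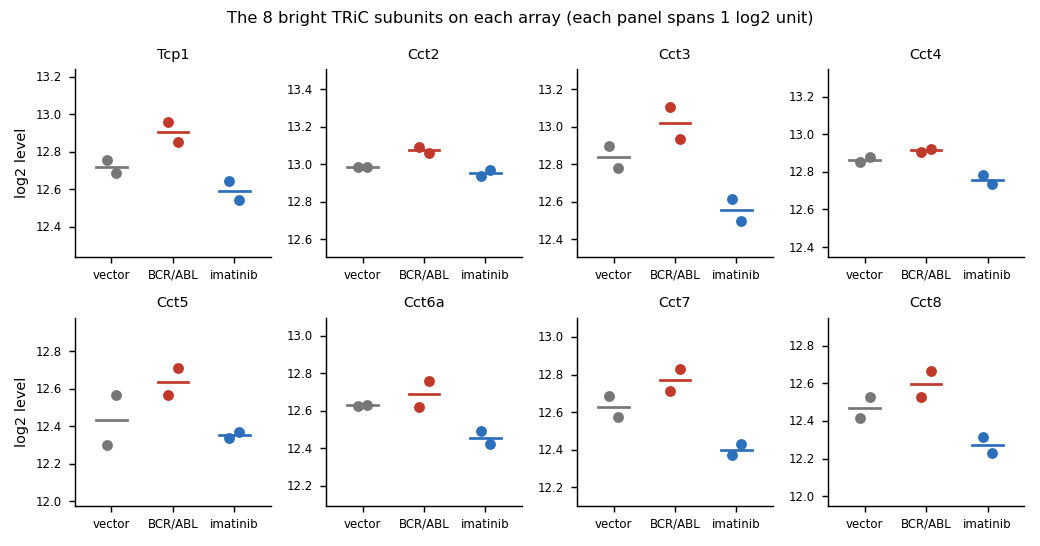
Each panel shows 1 bright TRiC subunit, with the log2 level on the vertical axis over a span of 1 log2 unit, the 3 groups on the horizontal axis, 1 point for each array and a line at the group mean. In all 8 panels both imatinib points (blue) lie below both BCR/ABL points (red).

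The mitochondrial chaperonin stood apart from the other groups more clearly with imatinib. Hspd1 encodes Hsp60, the chamber, and Hspe1 encodes Hsp10, its lid; their genes share the upstream site shown above. Hspd1 levels were 12.72 and 12.54 with the vector, 12.73 and 12.66 with BCR/ABL and 12.16 and 12.01 with imatinib. The imatinib arrays were both below all 4 others, while the vector and BCR/ABL arrays overlapped. The difference from BCR/ABL was -0.61 (SE 0.09, adjusted p = 0.108), a 1.52-fold lower value, and from the vector -0.54 (SE 0.09, adjusted p = 0.144).

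Hspe1 levels were 13.09 and 12.94 with the vector, 13.11 and 13.18 with BCR/ABL and 12.60 and 12.60 with imatinib. Its imatinib arrays nearly coincided and lay below all others, by -0.54 (SE 0.08, adjusted p = 0.108) from BCR/ABL and -0.42 (SE 0.08, adjusted p = 0.150) from the vector. Between BCR/ABL and vector the differences were 0.06 for Hspd1 and 0.13 for Hspe1. The other bright probe set of Hspe1 gave -0.44 against BCR/ABL. When limma was fitted to the probe sets above the 50th percentile alone, Hspd1, Hspe1 and Dnaja1 passed the adjusted threshold between imatinib and BCR/ABL. So did 200 of the 17938 probe sets in that fit, these included.

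In the Hsp70 and Hsp110 group the stress-inducible Hspa1b showed the lowest imatinib difference of all 80 members, and the constitutive Hspa8 was level. Of the 14 genes, 10 were lower with imatinib than with BCR/ABL and 7 (50%) met the looser rule, 0 being higher by that rule, against 9.13% lower and 7.88% higher among all genes. Among genes above the median signal, where 10 of the 14 lay, the shares were 13.1% and 11.5%. The median difference was -0.30 against BCR/ABL and -0.14 against the vector. There 3 (21.4%) met the rule as lower, against 7.7% of all genes and 10.5% of those above the median signal. Between BCR/ABL and vector the median was 0.14. There 1 gene (7.14%), Hspa9, met the rule as higher, which was no more than the 7.16% of all genes.

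Hspa1b, an Hsp70 gene that is strongly induced by heat and other protein damage, had deposited signals of 936 and 1738 with the vector, 765 and 2025 with BCR/ABL and 240 and 145 with imatinib. On the log2 scale its levels were 9.91 and 10.78 with the vector, 9.61 and 10.99 with BCR/ABL and 7.97 and 7.14 with imatinib. The vector and BCR/ABL arrays overlapped and spread widely, and both imatinib arrays lay far below them. The difference was -2.75 (SE 0.55, adjusted p = 0.130) from BCR/ABL, 6.71-fold lower, and -2.79 (SE 0.55, adjusted p = 0.162) from the vector, 6.91-fold lower. Its 2 dimmer probe sets gave -1.92 and -1.89 against BCR/ABL. When single arrays were left out or the settings altered, the difference from BCR/ABL ran from -3.44 to -2.06.

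Hspa1a, whose product is almost the same protein, had a dim probe set with levels of 4.75 and 5.95 with the vector, 5.24 and 6.13 with BCR/ABL and 4.06 and 4.09 with imatinib. Both imatinib arrays were close to the lower end of the scale, and the difference from BCR/ABL was -1.61 (SE 0.48, adjusted p = 0.214). Its size depended on the constant added before taking logs and on single arrays, and ran from -4.25 to -0.64 over the alternatives. Because of the near identity of the 2 genes, signal may be shared between their probe sets, and which of the 2 a value belongs to is uncertain.

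Genes that respond quickly to handling of cells gave differences in both directions beside that of Hspa1b. Of 11 such genes, 1 (9.09%) was higher and 2 (18.2%) were lower with imatinib than with BCR/ABL by the looser rule. The shares of all genes were 7.88% and 9.13%, and the median of the 11 was -0.08. Egr1, an immediate early transcription factor, differed by -1.64 and Atf3, a dim stress factor, by -2.52. Zfp36 differed by 0.74 and Fos by 0.78, but the arrays of Fos overlapped. Against the vector, 1 of the 11 (9.09%) was higher and 0 were lower by the rule, against 9% and 7.7% of all genes. There Egr1 differed by -0.31 and Atf3 by -0.32, beside -2.79 for Hspa1b. The part of handling in the Hspa1b difference was not tested.

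Hsph1, which encodes Hsp105, an exchange factor of the Hsp110 class, had levels of 12.79 and 12.62 with the vector, 12.60 and 12.74 with BCR/ABL and 11.93 and 12.29 with imatinib. The imatinib arrays were both lowest and differed between themselves. The difference was -0.55 (SE 0.14, adjusted p = 0.169) from BCR/ABL and -0.59 (SE 0.14, adjusted p = 0.195) from the vector, while BCR/ABL and vector overlapped. A second, less bright probe set gave -1.84 (adjusted p = 0.121) between imatinib and BCR/ABL, so the size depended on the probe set. Hspa4, also of the Hsp110 class, had levels of 12.38 and 12.26 with the vector, 12.53 and 12.49 with BCR/ABL and 12.25 and 12.05 with imatinib. Its difference from BCR/ABL was -0.36 (SE 0.09, adjusted p = 0.183).

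Hspa9 encodes the Hsp70 of the mitochondrial matrix, which pulls in imported proteins and hands them on to Hsp60. It lay at 12.43 and 12.59 with the vector, 12.81 and 12.76 with BCR/ABL and 12.41 and 12.26 with imatinib. BCR/ABL was above both other groups, by 0.27 (SE 0.09, adjusted p = 0.371) over the vector, and imatinib was -0.45 (SE 0.09, adjusted p = 0.129) from BCR/ABL. Hspa14, an Hsp70 that works at the ribosome, lay at 11.20 and 11.10 with the vector, 11.43 and 11.46 with BCR/ABL and 11.14 and 10.79 with imatinib. Its difference between imatinib and BCR/ABL was -0.48 (SE 0.14, adjusted p = 0.211), with 1 imatinib array close to the vector arrays.

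Hspa5 encodes BiP, the Hsp70 of the endoplasmic reticulum, and is a standard readout of the unfolded protein response. Its levels were 12.72 and 12.61 with the vector, 12.86 and 12.65 with BCR/ABL and 12.48 and 12.56 with imatinib. The imatinib arrays were lowest by a small margin, with a difference from BCR/ABL of -0.24 (SE 0.10, adjusted p = 0.339), and -0.48 on its other bright probe set. The looser call held in 8 of the 15 alternatives. Hspa8, the constitutive cytosolic Hsp70, had levels of 13.41 and 13.41 with the vector, 13.40 and 13.45 with BCR/ABL and 13.39 and 13.39 with imatinib. Its 6 arrays ran from 13.39 to 13.45, and the difference between imatinib and BCR/ABL was -0.03 (SE 0.05). Its other probe sets gave -0.04, 0.03 and, for the least bright, -0.39.

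**Figure D4:**
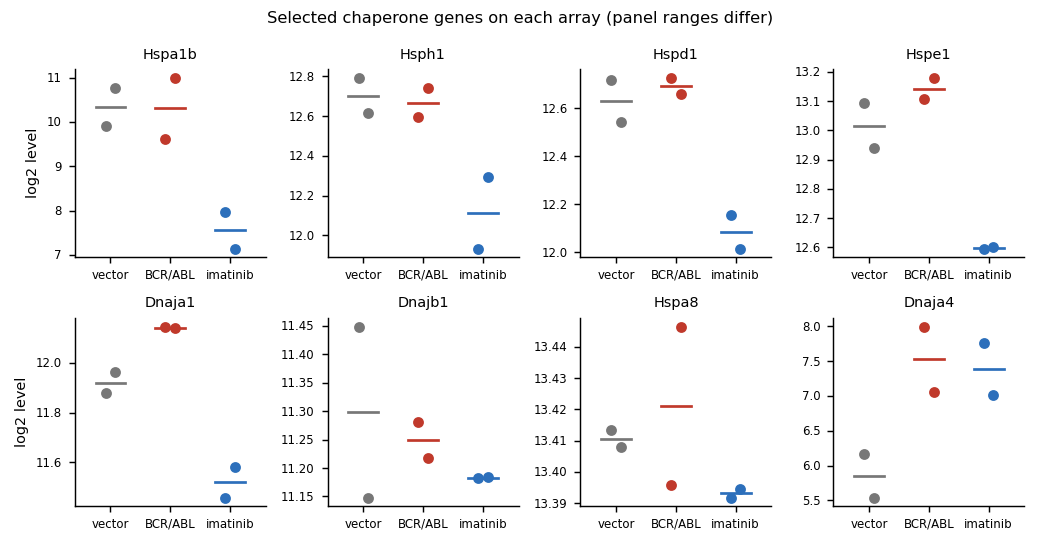
Each panel shows 1 chaperone gene with the log2 level on the vertical axis, the 3 groups on the horizontal axis, 1 point for each array and a line at the group mean; the vertical range differs between panels. Hspa1b, Hsph1, Hspd1, Hspe1 and Dnaja1 have both imatinib points lowest, Dnajb1 and Hspa8 span narrow ranges, and Dnaja4 has its vector points lowest.

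Of the 2 Hsp90 genes, both above the median signal, 1 met the looser rule as lower with imatinib than with BCR/ABL. The share was 13.1% among all genes above that signal. Both Hsp90 genes met the rule as lower against the vector, where that share was 10.5%. Hsp90b1, the Grp94 chaperone of the endoplasmic reticulum, had log2 levels of 12.293 and 12.288 with the vector, 12.373 and 12.518 with BCR/ABL and 12.004 and 12.006 with imatinib. The imatinib arrays nearly coincided and lay below all others, by -0.44 (SE 0.08, adjusted p = 0.121) from BCR/ABL and -0.29 (SE 0.08, adjusted p = 0.238) from the vector. Hsp90aa1, the inducible cytosolic form, had levels of 13.09 and 13.18 with the vector, 12.95 and 13.06 with BCR/ABL and 12.89 and 12.81 with imatinib. Its imatinib arrays were lowest too, with a difference of -0.16 (SE 0.07, adjusted p = 0.398) from BCR/ABL, which did not meet the looser rule, and of -0.29 (SE 0.07, adjusted p = 0.219) from the vector. The size depended on the probe set: the other bright probe sets of Hsp90aa1 gave -0.49 and -0.50 against BCR/ABL.

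J proteins, the largest group with 44 genes, were mixed. Between imatinib and BCR/ABL, 7 met the looser rule as lower (15.9%) and 2 as higher (4.55%), with a median of -0.07. Among all genes the shares were 9.13% and 7.88%, and among those above the median signal, where 37 of the 44 lay, 13.1% and 11.5%, so the share of lower J proteins was near that of other bright genes. Class A, the nearest to bacterial DnaJ, held cytosolic and mitochondrial partners of Hsp70. Of its 4 genes, 3 lay lower with imatinib than with BCR/ABL without overlap, against 26.7% of all genes. Of these 3, 2 met the looser rule, and Dnaja4 overlapped. Class B had a median of 0.10 and class C of -0.07 in this comparison. Against the vector, 8 of the 44 (18.2%) were lower and 3 (6.82%) higher by the rule, against 7.7% and 9% of all genes. Among all genes above the median signal the shares were 10.5% and 11.2%.

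Dnaja1, a farnesylated cytosolic partner of Hsp70, had levels of 11.88 and 11.96 with the vector, 12.15 and 12.14 with BCR/ABL and 11.46 and 11.58 with imatinib. BCR/ABL lay above the vector and imatinib below both, and no pair of groups overlapped. The differences were 0.22 (SE 0.09, adjusted p = 0.419) for BCR/ABL against vector and -0.62 (SE 0.09, adjusted p = 0.108) for imatinib against BCR/ABL. Against the vector, imatinib differed by -0.40 (SE 0.09, adjusted p = 0.177). Its other bright probe sets gave -0.39 and -0.31 between imatinib and BCR/ABL. Dnaja2, also cytosolic, and the mitochondrial Dnaja3 had smaller differences of -0.26 and -0.22 in that comparison.

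Dnaja4 showed another pattern: it was low with the vector and high in both BCR/ABL groups. Its levels were 6.17 and 5.54 with the vector, 7.99 and 7.06 with BCR/ABL and 7.75 and 7.02 with imatinib, with a gap between the arrays of each group. BCR/ABL exceeded the vector by 1.67 (SE 0.51, adjusted p = 0.347), 3.18-fold, the highest value of a member in that comparison. Imatinib exceeded the vector by 1.53 (SE 0.51, adjusted p = 0.293) and overlapped with BCR/ABL. A second bright probe set gave 0.68 between BCR/ABL and vector.

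Among class B, 2 J proteins of the endoplasmic reticulum, Dnajb11 and Dnajb9, went in opposite directions with imatinib. Dnajb11, or ERdj3, which binds clients together with BiP, had levels of 11.47 and 11.16 with the vector, 11.53 and 11.49 with BCR/ABL and 10.92 and 10.83 with imatinib. Its imatinib arrays were lowest, by -0.63 (SE 0.13, adjusted p = 0.139) from BCR/ABL and -0.44 (SE 0.13, adjusted p = 0.260) from the vector. Dnajb9, or ERdj4, which feeds misfolded proteins into degradation and holds the stress sensor Ire1 in check, had levels of 10.52 and 11.02 with the vector, 10.46 and 10.68 with BCR/ABL and 11.03 and 11.27 with imatinib. Both imatinib arrays were above all others, narrowly so for 1 vector array, with a difference from BCR/ABL of 0.58 (SE 0.20, adjusted p = 0.263). The difference between the 2 genes was not tested.

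Dnajb1, the classical heat-inducible J protein that works with Hspa8 and Hspa1b, was close to level at 11.45 and 11.15 with the vector, 11.28 and 11.22 with BCR/ABL and 11.18 and 11.18 with imatinib. The difference between imatinib and BCR/ABL was -0.07 (SE 0.12, adjusted p = 0.880). Dnajb6, which keeps aggregation-prone proteins soluble, carries a 3-unit heat shock element in the stretch shown above and had a difference of -0.01 (SE 0.07, adjusted p = 0.986). Its 6 arrays ran from 12.65 to 12.77. Of the other 9 class B genes, 0 met the looser rule in any comparison.

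In class C, whose members share little beyond the J domain, 4 of 27 genes (14.8%) were lower and 1 (3.7%) higher with imatinib than with BCR/ABL by the looser rule. This too was near the 13.1% of all genes above the median signal that were lower, and 24 of the 27 lay above it. Dnajc11, a protein of mitochondrial membrane architecture, had levels of 9.66 and 9.70 with the vector, 10.01 and 9.97 with BCR/ABL and 9.42 and 9.05 with imatinib. Imatinib was lowest on both arrays, with a difference from BCR/ABL of -0.76 (SE 0.18, adjusted p = 0.156). Dnajc2 encodes the ribosome-bound partner of Hspa14, and it had levels of 12.10 and 12.07 with the vector, 12.12 and 12.29 with BCR/ABL and 11.83 and 11.70 with imatinib. Its difference of -0.44 (SE 0.10, adjusted p = 0.141) had the same sign as that of Hspa14, and all 3 bright probe sets of Dnajc2 were lower.

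Dnajc15, a subunit of the motor that draws proteins into mitochondria, had levels of 11.99 and 12.19 with the vector, 12.15 and 12.26 with BCR/ABL and 11.82 and 11.81 with imatinib. Its imatinib arrays nearly coincided below all others, and the difference from BCR/ABL was -0.38 (SE 0.10, adjusted p = 0.171). Dnajc24, which acts in diphthamide synthesis, had levels of 9.59 and 9.79 with the vector, 9.92 and 9.85 with BCR/ABL and 9.38 and 9.50 with imatinib and a difference of -0.45 (SE 0.16, adjusted p = 0.277). Dnajc14 ran the other way: its levels were 11.05 and 10.92 with the vector, 10.56 and 10.77 with BCR/ABL and 11.07 and 11.02 with imatinib, lowest with BCR/ABL. Imatinib exceeded BCR/ABL by 0.38 (SE 0.12, adjusted p = 0.239) and BCR/ABL was -0.32 (SE 0.12, adjusted p = 0.410) from the vector. The 2 other bright probe sets of Dnajc14 were higher with BCR/ABL than with the vector, and the mean over its probe sets gave 0.10.

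Against the vector, further class C genes met the looser rule. Dnajc6, or auxilin, which strips clathrin coats, had levels of 11.18 and 11.49 with the vector, 11.64 and 11.55 with BCR/ABL and 11.84 and 11.72 with imatinib, with imatinib highest and a difference of 0.45 (SE 0.13, adjusted p = 0.251). Dnajc5, the cysteine string protein of secretory vesicles, had levels of 10.39 and 10.42 with the vector, 10.67 and 10.49 with BCR/ABL and 10.91 and 10.62 with imatinib. Its difference from the vector was 0.36 (SE 0.15, adjusted p = 0.355), and the call held in 4 of the 15 alternatives. Dnajc9, a chaperone of histones, had levels of 11.79 and 11.64 with the vector, 11.60 and 11.54 with BCR/ABL and 11.53 and 11.20 with imatinib and a difference of -0.36 (SE 0.13, adjusted p = 0.334). Dnajc6 and Dnajc5 were thus above the vector and Dnajc9 below it. Dnajc3, or p58IPK, which carries a stress element upstream as Hspa5 does, had levels of 11.36 and 11.50 with the vector, 11.09 and 11.36 with BCR/ABL and 11.02 and 11.36 with imatinib. Its imatinib and BCR/ABL arrays overlapped, with a difference of -0.03 (SE 0.16, adjusted p = 0.960).

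Small heat shock proteins, which hold unfolding proteins without ATP, gave little signal in these cells. Of the 8 genes, 6 were dim, and only Hspb6 and Hspb11 exceeded the median signal. The median difference between imatinib and BCR/ABL was 0.04. Hspb1, or Hsp27, was dim, with levels of 5.69 and 4.57 with the vector, 4.86 and 5.63 with BCR/ABL and 4.42 and 4.58 with imatinib, and its arrays overlapped between vector and BCR/ABL. The difference between imatinib and BCR/ABL was -0.75 (SE 0.44, adjusted p = 0.515). By the looser rule 1 gene, Hspb8, a partner of Bag3, was higher with imatinib; it was dim, outside the rule for named genes and named here after its values were seen. Its levels were 4.60 and 4.17 with the vector, 4.66 and 4.85 with BCR/ABL and 5.36 and 5.90 with imatinib, and the difference from BCR/ABL was 0.87 (SE 0.28, adjusted p = 0.240).

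**Figure D5:**
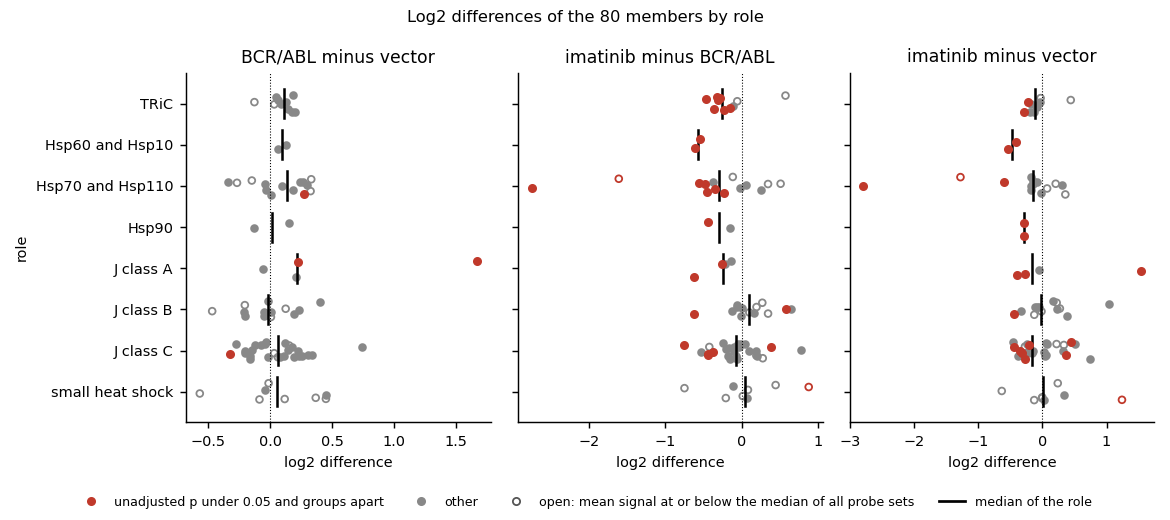
Each point is 1 of the 80 members, placed by its log2 difference on the horizontal axis and by role on the vertical axis, in 1 panel for each comparison; red marks an unadjusted p under 0.05 with groups apart, open circles mark dim genes, and a bar marks the median of the role. In the middle panel, imatinib against BCR/ABL, the medians are -0.26 for TRiC, -0.58 for Hsp60 and Hsp10 and 0.10 for J class B.

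The upstream letters can be set beside the imatinib differences. Of the 17 members with a 2-unit heat shock element, 14 were lower with imatinib than with BCR/ABL, 7 of them by the looser rule, with a median of -0.24. Over all 80 members 54 were lower and 24 met the rule, and over all genes 51% and 9.13%; whether the members with a match differ from those without was not tested. The 3 members with 3 units were Hspd1 at -0.61, Hspe1 at -0.54 and Dnajb6 at -0.01. The 3 with the stress element were Hspa5 at -0.24, Hsp90b1 at -0.44 and Dnajc3 at -0.03. Several of these genes share a site or nearly all of their upstream sequence, so they are not separate cases.

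Partner genes outside the families were taken as lists. Of 22 measured cochaperones of Hsp70 and Hsp90, all above the median signal, 10 (45.5%) were lower and 1 (4.55%) higher by the rule between imatinib and BCR/ABL, against 13.1% and 11.5% of all genes above that signal, with a median of -0.37. Against the vector the counts were again 10 lower and 1 higher, against 10.5% and 11.2% of all genes above that signal. The median there was -0.31. Hyou1, an exchange factor for BiP, differed from BCR/ABL by -0.94, and Hspbp1, an exchange factor in the cytosol, by -0.89. Stip1, which links Hsp70 to Hsp90, differed by -0.77, and Fkbp4, an Hsp90-bound isomerase, by -0.79. Ahsa1, which stimulates the ATPase of Hsp90, differed by -0.62 (SE 0.08, adjusted p = 0.108), and Cdc37, which delivers kinases to Hsp90, by -0.58 (SE 0.13, adjusted p = 0.145). The exception was Fkbp5, a glucocorticoid-responsive isomerase, at 0.56. Between BCR/ABL and vector 3 cochaperones (13.6%) were higher and 0 lower by the rule, with a median of 0.13. The shares were 7.66% and 6.99% of all genes above the median signal.

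Of 9 genes for prefoldin and other helpers of TRiC, all above the median signal, 3 (33.3%) were lower and 1 (11.1%) higher with imatinib than with BCR/ABL by the looser rule, against 13.1% and 11.5% of all genes above that signal. Their median was -0.22. The prefoldin subunits Pfdn4, Pfdn6 and Pfdn1 differed by -0.59, -0.58 and -0.32, and Pdcl, a phosducin-like cofactor, by 0.48. Between BCR/ABL and vector 3 (33.3%) were higher and 1 (11.1%) lower, against 7.66% and 6.99% of all genes above that signal, with a median of 0.18.

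Folding and stress genes of the endoplasmic reticulum had 5 of 16 members (31.2%) that met the looser rule as higher in BCR/ABL than in vector cells. As lower 0 met it, and the median was 0.20. The shares were 7.66% and 6.99% of all genes above the median signal. Xbp1, a transcription factor of the unfolded protein response, differed by 0.85 (SE 0.12, adjusted p = 0.108). Creld2, Manf and Sdf2l1, small folding factors induced by that response, differed by 0.53, 0.46 and 0.41. Atf4 also met the rule, at 0.36. With imatinib 6 (37.5%) were lower than with BCR/ABL and 1 (6.25%) higher by the rule, with a median of -0.15. All 16 lay above the median signal, where 13.1% of all genes were lower and 11.5% higher. Sdf2l1 differed by -1.14, Creld2 by -1.10, Manf by -0.67 and the oxidoreductase Pdia6 by -0.72. Xbp1 and Atf4 also met the rule as lower, at -0.50 and -0.41. Ddit3, or CHOP, the factor of the late response, ran the other way at 1.27.

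The measured heat shock factors and the other stress proteins gave little to read. Of the heat shock factor list, Hsf2 and Hsf4 were dim, and Hsbp1, a factor-binding protein, differed by -0.25 (SE 0.12, adjusted p = 0.403) between imatinib and BCR/ABL; Hsf1 was not analysed here. Among other stress proteins, Cryab and Serpinh1 were dim, and Hmox1 differed by -0.36. In these lists 0 of the 6 genes met the looser rule in any comparison. In the 5 lists of partners and regulators together, 0 genes passed an adjusted p of 0.05 in limma in any comparison.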

How the data were processed

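Expression was measured in 6 samples on Affymetrix arrays, in 3 groups of 2 named by the sample titles. The deposited values are linear intensity values, 1 per probe set, made with Affymetrix Expression Console and MAS5 per the submitters' processing notes, which give no versions. The design text names a whole-transcript array, but the deposited probe set identifiers are those of an older 3-prime array, so the labelling is not settled. Of 45101 probe sets, 64 controls were left out, and 35877 with a gene symbol were tested. The other 9160 had no symbol. Among those tested, 932 had several symbols and stood for no gene. These include 3 probe sets of Dnajc19 and its pseudogene, so Dnajc19 is not among the members.

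Values were transformed as log2(intensity + 16), quantile normalised, and tested two-sided with limma 3.58.1 in R 4.3.3 (lmFit, eBayes with trend) in 1 model of all arrays, with 3 residual and 2.97 prior degrees of freedom. P-values were adjusted by Benjamini-Hochberg. The analysis was run on simulated data with changes planted in bright probe sets only. The planted changes were larger than most differences given here, so the simulation does not test differences of that smaller size. The number of arrays limits the precision. Genes were named by rule: in each comparison up to 12 bright members in each direction by size among those with an unadjusted p under 0.05 and groups apart, plus 25 members listed by role. Dnaja2, Dnaja3, Dnajb6, Dnajc15 and Hspb8 were named outside that rule, after their values were seen. The members, the lists of partners and markers, and the tests were chosen with earlier results of these data known. Alternatives were other scalings, added constants of 1 and 64, the probe sets above the 50th percentile, averaged probe sets, no trend, a robust prior, a replicate block and leaving out each array. Promoter sequence is from RefSeq, GRCm38.p6.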

Additional observations from a re-analysis of the deposited data

How the results depend on the processing

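With 2 arrays in each group, the main limit is precision. Of the members, 0 passed the adjusted test between BCR/ABL and vector in all 15 alternatives. Between imatinib and BCR/ABL, 16 passed with array medians, a scaling that shifts all genes and called 1200 of 35877 probe sets. Among probe sets above the 50th percentile 3 passed, where 200 of 17938 were called. Against the vector 2 passed under each of these settings, which called 275 and 184 probe sets. Under the other settings that kept all 6 arrays, 0 passed.

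By the looser count, higher members in BCR/ABL against vector (main 3) numbered 11 with array medians, 1 with averaged probe sets, 5 with the replicate block and 0 to 6 without single arrays. Lower members there (main 1) numbered 0 with array medians, above the 50th percentile, with averaged probe sets and without trend, and 0 to 3 without single arrays. Higher members in imatinib against BCR/ABL (main 3) numbered 1 with array medians, 5 as deposited and 0 to 5 without single arrays; lower members (main 24) stayed within 1.5 times, at 16 to 22 without single arrays and 25 with the replicate block. Against the vector, higher members (main 4) numbered 1 with averaged probe sets and 1 to 6 without single arrays, and lower members (main 17) 7 without trend and 7 to 16 without single arrays.

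The member median in BCR/ABL against vector (main 0.07) was 0.24 with array medians, 0.029 as deposited, 0.10 with a constant of 1 and 0.094 above the 50th percentile. In imatinib against BCR/ABL (main -0.12) it was -0.40 with array medians, -0.068 as deposited, -0.092 with a constant of 64, -0.16 above the 50th percentile and -0.16 to -0.11 without single arrays. Against the vector (main -0.11) it was -0.22 with array medians, -0.14 and -0.079 with constants of 1 and 64, -0.15 above the 50th percentile and -0.077 with averaged probe sets. The TRiC median in BCR/ABL against vector (main 0.11) was 0.27 with array medians, 0.063 as deposited and 0.069 to 0.11 without single arrays. In imatinib against BCR/ABL (main -0.26) it was -0.63 with array medians, -0.30 as deposited, with a constant of 1 and above the 50th percentile, and -0.28 to -0.19 without single arrays. Against the vector (main -0.12) it was -0.31 with array medians, -0.19 as deposited, -0.15 with a constant of 1 and -0.16 to -0.091 without single arrays. Dnajc14 reversed in BCR/ABL against vector, to 0.10, with averaged probe sets; the cause was not tested, as for the other moves apart from the shift of all genes with array medians.

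Same-numbered arrays did not deviate together: the correlations of replicate 1 minus replicate 2 were -0.08 between vector and BCR/ABL, 0.16 between vector and imatinib and 0.15 between BCR/ABL and imatinib, so the replicate numbers were not taken to pair the samples.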
